A study of Mus musculus with 2 samples.

Results

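Described here are 6 genes of lymphocyte exit and lymphoid homing, S1pr1, S1pr4, S1pr5, Klf2, Ccr7 and Gpr183, out of 31053 genes listed for the immune cells of the mouse stomach. They were chosen by name and not by their values, and each had 1 row in both deposited matrices. Of the 6 genes, 5 encode G protein-coupled receptors and 3 of these bind the lipid sphingosine 1-phosphate (S1P). Klf2 encodes a transcription factor, so calling the set receptors covers all of it but Klf2.

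The cells came from TxA23 mice, which carry a transgenic T cell receptor against a stomach protein and develop autoimmune gastritis. From 3 months of age each mouse wore an osmotic pump under the skin for 4 weeks, which held 200 uL of PBS alone or PBS in which the cytokine IL-27 was dissolved at 4 ug per mL, 800 ng in all, as a single recombinant chain of p28 and EBI3. Live CD45+ leukocytes flushed from the stomach lining were sorted and profiled with 10x Genomics 5' chemistry. Cells of 3 female mice went into the IL-27 library, and those of 1 male and 1 female mouse into the PBS library. Each treatment thus has 1 library, all mice carry the transgene and a pump, and no mouse without them is analysed here.

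Each unique molecular identifier (UMI) counts 1 captured RNA molecule. The libraries held 80121995 and 43501501 UMIs, and 20579 IL-27 and 11793 PBS cells passed the filter. Barcode suffixes split the libraries into 3 IL-27 wells and 2 PBS wells of 5451 to 7549 cells, with medians of 2763 to 3185.5 UMIs per cell; the labels do not say that a well is a mouse, so p-values over wells measure only the spread between wells. In all, 24417 of 32372 cells fell into a leukocyte subset drawn on raw UMIs of marker genes, here called a gate, and the IL-27 and PBS libraries shared 355 barcode sequences. PBS well 2 stood apart: it alone held Y-linked UMIs (3074), and it held 65 of the 76 mast cells. Results that rest on it are given with and without it.

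RNA of each lineage was summed in the gates as a check on how they were drawn. Summed over 6 genes, T cell RNA stood at 3389.9 to 8871 CPM in CD8 T cells and 33.0 to 140.1 CPM in NK cells by well, and 41.9 to 55.1 CPM in Fcer2a+ B cells. The 6 genes of myeloid RNA summed to at most 5.40 CPM in the main T and NK gates apart from 106 CPM in conventional CD4 T cells of IL-27 well 1. The 7 genes of B cell RNA summed to 128 to 430 CPM over the T and NK wells. In the dendritic, mast and monocyte gates they summed to 4443 to 22059 CPM by library. T cell RNA stood at 890 and 577 CPM in plasmacytoid dendritic cells of the IL-27 and PBS libraries. The 4 genes of erythroid RNA reached 1784 CPM in γδ T cells of IL-27 well 2 and at most 7.06 CPM in the other T and NK wells. The part of these RNAs in the results was not tested.

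S1P is high in blood and lymph and low inside tissues, and lymphocytes follow that slope out of tissue through S1PR1. S1PR5 serves natural killer (NK) cells in the same way, and S1PR4 is a blood cell receptor whose role in exit is less clear. KLF2 keeps S1pr1 transcribed in resting T cells and is shut off by antigen receptor signals, while CD69 pulls S1PR1 protein off the cell surface. CCR7 steers T cells, B cells and mature dendritic cells into lymph nodes along CCL19 and CCL21, and GPR183 senses oxidised cholesterols that position B cells, T cells and dendritic cells inside lymphoid tissue. In the stomach, as in other barrier tissues, loss of this program is a textbook trait of lymphocytes that stay.

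The genes lie apart in the genome. In GENCODE M21 (GRCm38) they are S1pr1 at chr3:115710433-115715072, S1pr4 at chr10:81497747-81500132, S1pr5 at chr9:21242912-21248443, Ccr7 at chr11:99144196-99155077 and Gpr183 at chr14:121952551-121965195, all on the minus strand, and Klf2 at chr8:72319033-72321656 on the plus strand. RefSeq promoters (GRCm38.p6) matched 4 of the 6 genes, all but S1pr1 and Ccr7. The 250 bases before the start are shown for Klf2, S1pr5 and Gpr183, because the values below set these 3 apart: Klf2 tracks S1pr1 in T cells, S1pr5 is an NK gene, and Gpr183 went least with the other genes across gates. Capitals mark matches, on either strand, to the KLF core CACCC, the GC box core CCGCCC, the forkhead core TAAACA and the MEF2 motif TAAATTTA; the T-box core TCACAC was searched too, and the motifs do not overlap each other here.
Klf2 promoter, chr8:72318812-72319061, plus strand: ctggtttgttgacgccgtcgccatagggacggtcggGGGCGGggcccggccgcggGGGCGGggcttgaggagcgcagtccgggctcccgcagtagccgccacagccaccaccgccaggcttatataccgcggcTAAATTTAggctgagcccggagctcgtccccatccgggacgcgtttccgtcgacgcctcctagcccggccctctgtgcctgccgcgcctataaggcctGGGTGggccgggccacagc
S1pr5 promoter, chr9:21248444-21248693, minus strand: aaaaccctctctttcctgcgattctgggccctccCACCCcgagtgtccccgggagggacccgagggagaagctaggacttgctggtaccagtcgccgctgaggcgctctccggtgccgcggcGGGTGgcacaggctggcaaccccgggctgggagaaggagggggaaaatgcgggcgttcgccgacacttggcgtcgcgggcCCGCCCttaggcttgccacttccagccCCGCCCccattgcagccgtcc
Gpr183 promoter, chr14:121965194-121965443, minus strand: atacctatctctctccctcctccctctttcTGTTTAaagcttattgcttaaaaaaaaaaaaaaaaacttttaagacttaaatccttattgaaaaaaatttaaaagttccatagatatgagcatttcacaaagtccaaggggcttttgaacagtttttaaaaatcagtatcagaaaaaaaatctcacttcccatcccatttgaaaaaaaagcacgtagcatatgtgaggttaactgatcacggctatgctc

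The Klf2 window held 1 MEF2 match, 117 bases before the start, a motif present in 0.502% of the 32851 mouse promoters of the same length. It also held 2 GC boxes and 1 KLF core. S1pr5 had 2 KLF cores and 2 GC boxes, S1pr4 had 1 KLF core, and Gpr183 had 1 forkhead core and neither a KLF core nor a GC box. These letters are common, with a KLF core in 52.0%, a GC box in 32.7% and a forkhead core in 12.03% of promoters. The T-box core, found in 12.3%, was in none of the 4 windows. GC content was 71.2% for Klf2, 69.2% for S1pr5, 38.8% for S1pr4 and 32% for Gpr183. A match is a description of the letters and not a site.

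Across the leukocyte gates the S1P receptors split by lineage. S1pr1 was a gene of B and T cells, S1pr5 of NK cells, and S1pr4 was found in all lymphocytes. Levels are given in CPM, the UMIs of a gene scaled to the total UMIs of the gate, with both libraries pooled and the range over wells in brackets. S1pr1 stood at 219 CPM in B cells (202 to 241), 163 CPM in conventional CD4 T cells (97.9 to 184), 146 CPM in γδ T cells (25.2 to 244), 142 CPM in regulatory T cells (109.5 to 173) and 134 CPM in CD8 T cells (18.7 to 161). The B cell wells lay above all conventional CD4 T cell wells, while neighbours among the T cell gates overlapped. Below them came plasma cells at 28.1 CPM and NK cells at 15.2 CPM (0 to 35.7), and none of 147 plasmacytoid dendritic cells had an S1pr1 UMI, which allows a share of cells with a UMI of up to 2.04%. Such limits bound the cells in which a UMI would be captured, not the cells that express the gene.

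With every cell thinned to 1000 UMIs, S1pr1 was found in 19.8% of 17800 B cells and 14.8% of 2225 conventional CD4 T cells, after 554 and 55 shallower cells were left out. In NK cells it was found in 1.66% of 361 cells, with 25 left out. Unthinned shares were 43.7%, 37.4% and 4.40%, at median depths of 2791.5, 3743.5 and 2774.5 UMIs. Plasmacytoid dendritic cells, with no S1pr1 UMI, had a median of 6764 UMIs.

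S1pr5 was highest in NK cells by far. It stood at 173, 293 and 231 CPM in IL-27 wells 1 to 3 and at 165 and 76.4 CPM in PBS wells 1 and 2, for a pooled 150 CPM. CD8 T cells held 1.84 CPM, γδ T cells 2.09 CPM and B cells 0.396 CPM, and none of 705 regulatory T cells had a UMI, which allows a share with a UMI of up to 0.426%. Monocytes and macrophages held 8 UMIs, 12.7 CPM. S1pr4, the blood cell S1P receptor, ran from 134 CPM in NK cells (122 to 155) through 117 CPM in regulatory T cells, 96.7 CPM in B cells, 94.4 CPM in conventional CD4 T cells and 82.2 CPM in CD8 T cells to 1.59 CPM in monocytes and macrophages. Ranges over wells of neighbouring lymphocyte gates overlapped throughout for S1pr4.

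Klf2 was widespread. NK cells stood at 720 CPM (528 to 1060.3), B cells at 647 CPM (557 to 751), monocytes and macrophages at 627 CPM, CD8 T cells at 432 CPM (54.6 to 524), γδ T cells at 419 CPM (124 to 635), conventional CD4 T cells at 418 CPM (229 to 495) and regulatory T cells at 358 CPM (266 to 414). Neutrophils had the highest Klf2 level, 930 CPM, but from 51 cells, 71 UMIs and wells too small to compare. Klf2 was low in plasma cells at 124 CPM, in plasmacytoid dendritic cells at 120 CPM and in mast cells at 14.8 CPM. The wells of NK cells overlapped those of B cells, and those of the T cell gates overlapped each other. The B cell wells lay above all CD8 and conventional CD4 T cell wells.

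Ccr7, the lymph node entry receptor, ran from 248 CPM in conventional CD4 T cells (99.5 to 276) and 196 CPM in CD8 T cells (46.0 to 271) through 139 CPM in regulatory T cells, 125 CPM in B cells and 115 CPM in γδ T cells to 9.31 CPM in NK cells. None of 113 monocytes and macrophages had a Ccr7 UMI, which allows a share with a UMI of up to 2.65%. Mature dendritic cells, drawn on Fscn1, Ccl22 and Cacnb3, reached 1765 CPM of Ccr7, and Gpr183 was at 343 CPM in the same cells, but that gate held 36 cells and is described only. Plasmacytoid dendritic cells had 87 Ccr7 UMIs in 8.16% of their cells, and 85 of these UMIs came from the PBS library.

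Gpr183, the oxysterol receptor, was at 101 CPM in B cells (84.4 to 118), 71.3 CPM in regulatory T cells (40.9 to 108), 68.6 CPM in NK cells, 63.2 CPM in conventional CD4 T cells, 47.0 CPM in CD8 T cells and 15.3 CPM in plasma cells. The B cell wells overlapped those of regulatory T cells and NK cells. Dendritic, monocyte and mast cell gates lay between 62.0 and 108 CPM, apart from the mature dendritic cells. None of 51 neutrophils had a Gpr183 UMI, which allows a share with a UMI of up to 5.88%, at a median of only 1397 UMIs per cell.

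**Figure D1:**
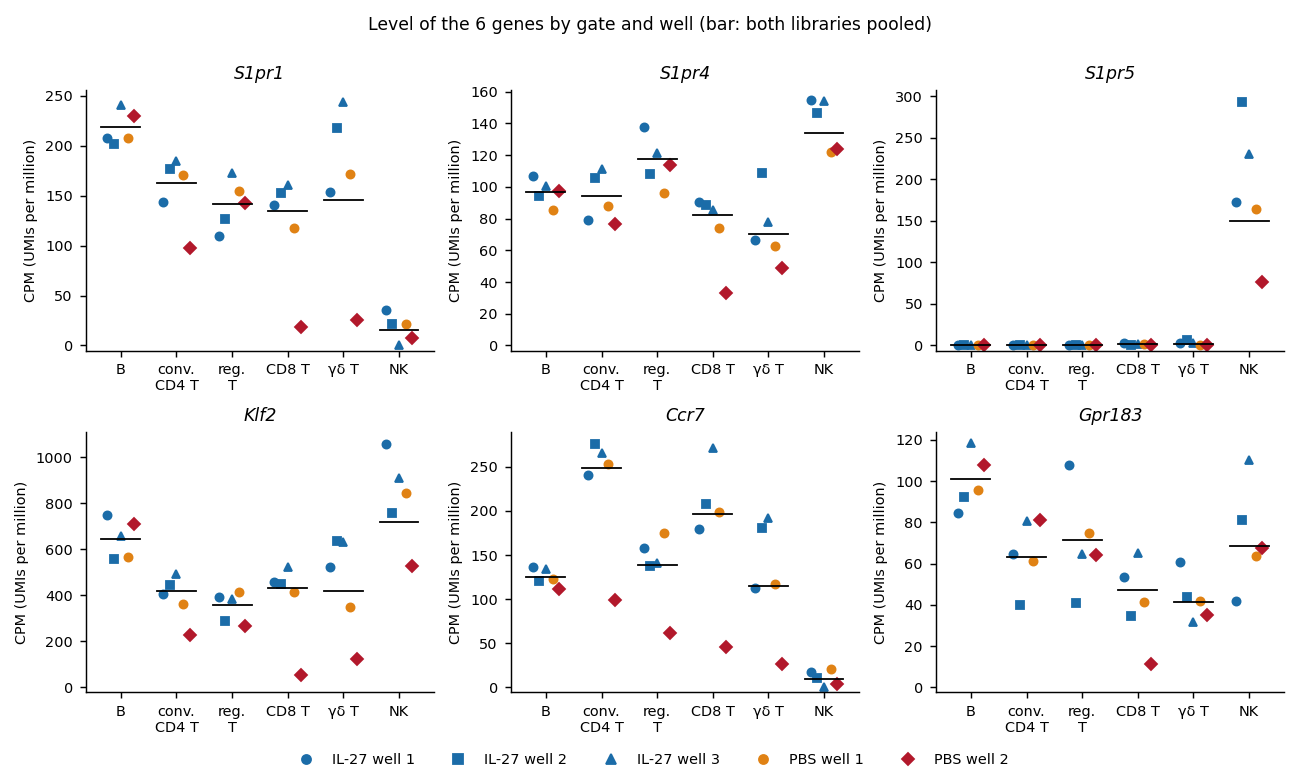
Level of each gene (CPM, linear axis from 0) in 6 lymphocyte gates, with 1 symbol per well and a bar for both libraries pooled. S1pr5 is seen in NK cells, where S1pr1 and Ccr7 are near 0, and PBS well 2 lies lowest for S1pr1, Klf2 and Ccr7 in CD8 and γδ T cells.

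Regulatory T cells, the Foxp3-positive cells that restrain immune responses, differed from conventional CD4 T cells in Ccr7 alone among the 5 genes tested, 1 of 5 lower against 6.51% of 7686. Ccr7 stood at 158, 138, 140.5, 175 and 61.3 CPM in regulatory T cells of the 5 wells and at 240.3, 276, 265, 253 and 99.5 CPM in conventional CD4 T cells, lower in each well, with a log2 difference of -0.83 (SE 0.09, adjusted p = 8.72e-07). S1pr1 (-0.23, adjusted p = 0.202), Klf2 (-0.22, adjusted p = 0.139) and S1pr4 (0.26, adjusted p = 0.176) did not pass. Without PBS well 2, S1pr1 (-0.32) and Klf2 (-0.27) passed as well, and without PBS well 1 Klf2 did (-0.30). Over all genes 8.16% were higher. Retention genes were higher in 3 of 5 tested (Itgae, the integrin that holds T cells in epithelium, by 3.16, Rgs1, a brake on chemokine receptors, by 1.69 and Prdm1 by 2.44). Of 12 KLF and FOXO genes, the regulators and targets of these factors, 4 were higher (Klf3 by 0.35, Klf6 by 0.59, Il7r by 0.83 and Itgb7 by 0.72) and Foxp1 was lower (-1.06). Among 9 S1P signalling genes only Arhgef1, which relays S1P receptor signals to the cytoskeleton, was lower (-0.23). Of 8 chemokine and adhesion genes 3 were higher (Cxcr4 by 1.22, Ccr6 by 2.11 and Itga4 by 0.29) and 2 lower (Cxcr5 at -1.105 and Itgal at -0.54). Of 9 dissociation response genes 3 were higher (Jun, Junb and Dusp1) and 3 lower (Fos, Egr1 and Nr4a1). Beside these, Ighm of the B cell RNA list (1.503) and Tff1 of the gastric epithelial RNA list (1.34) were higher, and Trac of the T cell RNA list was lower (-0.26). The part of these RNAs in the Ccr7 difference was not tested.

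CD69 protein and S1PR1 oppose each other on the cell surface, and here the RNA was compared. Conventional CD4 T cells with a Cd69 UMI held less S1pr1 and S1pr4 RNA than those without. S1pr1 stood at 103, 96.4, 126, 111 and 96.7 CPM in Cd69+ cells and at 157, 198, 203, 193 and 98.2 CPM in Cd69- cells of the same wells. The level was lower in 4 wells and nearly equal in PBS well 2. With cells thinned to 1000 UMIs the gap was smaller and not of 1 direction: S1pr1 was found in 11.8% of 186 cells with a Cd69 UMI and 15.1% of 2039 without, and by well in 6.67%, 7.14%, 19.6% and 10.0% against 14.4%, 16.6%, 14.4% and 16.7% in IL-27 wells 1 to 3 and PBS well 1, so that IL-27 well 3 went the other way. The thinned shares in CD8 T cells were 13.4% with and 12.6% without Cd69, and in Fcer2a+ B cells 20.2% and 19.9%. S1pr4 stood at 51.6, 73.8, 89.4, 61.9 and 56.4 CPM against 87.6, 115, 118, 97.9 and 81.5 CPM, lower in all 5 wells.

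S1pr1 fell by 0.74 (SE 0.11, adjusted p = 0.000394) and S1pr4 by 0.61 (SE 0.12, adjusted p = 0.00526) over 5 wells, 2 of 5 genes against 0.601% of 7318. Klf2 (-0.43, adjusted p = 0.0718), Ccr7 (-0.04, adjusted p = 0.950) and Gpr183 (-0.21) were not called. The S1pr4 call was lost without IL-27 well 2 (-0.59, adjusted p = 0.0513) and with DESeq2 (-0.61, adjusted p = 0.211), and both calls were lost when cells were thinned to 1000 UMIs (S1pr1 -0.64, adjusted p = 0.0526) and without the well as a block (S1pr1 -0.70, adjusted p = 0.0897). Beside this, 6 of 9 genes of the dissociation response, immediate early and stress genes that cell preparation induces, were higher in Cd69+ cells (0.984% of all genes), among them Nr4a1 (2.44), Egr1 (1.68) and Fos (1.59), which antigen receptor signals also induce. The part of cell preparation in the S1pr1 difference was not tested. No retention gene of 3 tested was called.

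Conventional CD4 T cells with Cxcr5 and with Pdcd1 or Bcl6, markers of follicular helper cells, numbered 113 and are described without a test. S1pr1 stood at 90.9 and 110.0 CPM in IL-27 wells 1 and 3, the wells with at least 20 such cells, beside 144 and 184 CPM in all conventional CD4 T cells of these wells. Klf2 stood at 305 and 349 CPM beside 405 and 495 CPM, and Ccr7 at 162 and 259 CPM beside 240.3 and 265 CPM. These 3 genes were lower in the Cxcr5+ cells of both wells, by little for Ccr7 in IL-27 well 3. Gpr183 was not lower throughout. It stood at 45.5 CPM in the lower and 84.1 CPM in the higher well, beside 40.1 to 81.3 CPM over all conventional CD4 T cell wells. For S1pr4 the values were 32.5 and 90.6 CPM, beside 76.3 to 111 CPM. The Cxcr5+ cells are part of the larger gate.

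**Figure D2:**
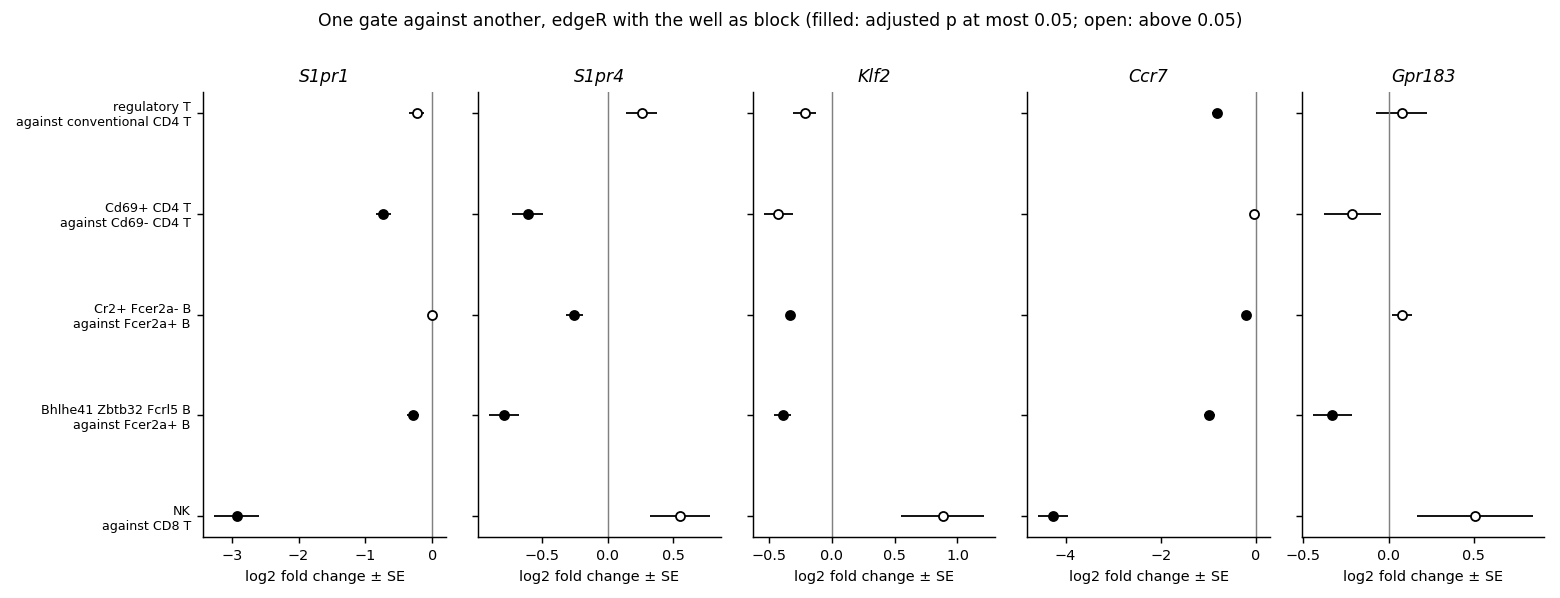
Log2 fold change ± SE between gates for 5 genes from edgeR with the well as a block. Filled points are at an adjusted p of at most 0.05, open points above it, the grey line is 0 and each panel has its own axis. In the row of Bhlhe41 Zbtb32 Fcrl5 B cells all 5 genes lie left of 0, and in that of NK cells S1pr1 and Ccr7 lie far left.

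Cr2+ Fcer2a- B cells had less Klf2, S1pr4 and Ccr7 than Fcer2a+ B cells, while S1pr1 was not called. The first gate takes B cells with a Cr2 UMI and no Fcer2a UMI. It can thus hold cells that express Fcer2a but gave no UMI of it. Klf2 stood at 555, 465, 561, 444 and 598 CPM in Cr2+ Fcer2a- cells and at 779, 570.1, 669.6, 585 and 742 CPM in Fcer2a+ cells, lower in each of the 5 wells. It fell by 0.33 (SE 0.03, adjusted p = 8.47e-08 with the well as a block, and 0.235 without the block). S1pr4 fell by 0.25 (SE 0.06, adjusted p = 0.0222) and Ccr7 by 0.22 (SE 0.06, adjusted p = 0.0391), so that 3 of 5 genes were lower against 1.26% of 10313.

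Without the well as a block none of the 3 was called (Klf2 -0.34, S1pr4 -0.25 and Ccr7 -0.22), and 8 of all genes were, against 280 with it. The S1pr4 call was also lost without IL-27 well 2 (-0.26), PBS well 1 (-0.25) or PBS well 2 (-0.19), and the Ccr7 call without IL-27 well 2 (-0.22), IL-27 well 3 (-0.21) or PBS well 2 (-0.16). S1pr1 stood at 205, 209, 215, 209 and 249.9 CPM against 208, 203, 244, 209 and 236 CPM, with a difference of -0.00 (adjusted p = 0.991), and the wells interleaved. Gpr183 had a difference of 0.08. None of 14 KLF and FOXO genes or 13 S1P signalling genes was called, and of 8 chemokine and adhesion genes only Icam2 was lower (-0.35).

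B cells with at least 2 UMIs of Bhlhe41, Zbtb32 and Fcrl5, genes of B1-type cells that circulate between body cavities and tissue, held less of all 5 genes tested. Ccr7 stood at 52.2, 66.0, 49.9, 49.0 and 72.2 CPM in these cells and at 144, 123, 139.8, 126 and 124 CPM in Fcer2a+ cells. S1pr4 stood at 54.7, 53.1, 56.1, 46.1 and 53.9 CPM against 106, 101, 103, 89.1 and 108 CPM. For Ccr7, S1pr4 and S1pr1, 3 of 5 genes, every well of the B1-type gate lay below every Fcer2a+ well (19.2% of 7959 genes), for S1pr1 only just, at 201 against 203 CPM. The wells overlapped for Klf2 and Gpr183.

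Ccr7 fell by 0.99 (SE 0.12, adjusted p = 3.76e-07), S1pr4 by 0.79 (SE 0.11, adjusted p = 6.54e-06), Klf2 by 0.39 (SE 0.07, adjusted p = 5.93e-05), Gpr183 by 0.33 (SE 0.11, adjusted p = 0.0352) and S1pr1 by 0.29 (SE 0.09, adjusted p = 0.0250). These 5 of 5 stand against 10.4% of 10523 genes. The S1pr1 call was lost without PBS well 1 (-0.28) or PBS well 2 (-0.16), and the Gpr183 call without any 1 of the IL-27 wells (-0.22 to -0.36). Median depth was 5328 UMIs against 2825 UMIs. Of 14 KLF and FOXO genes 6 were lower, among them Foxo1 (-1.02) and Klf13 (-1.02), and 9 of 10 dissociation response genes were lower too. The S1P list went both ways, with S1pr3 (1.46), the S1P lyase gene Sgpl1 (0.87) and Rac2 (0.25) higher (13.3% of all genes) and the S1P exporter gene Spns2 (-1.496), Arhgef1 (-0.39) and Cd69 (-0.80) lower among 13 tested. Of 4 retention genes 2 were higher and 1 lower, and of 8 chemokine and adhesion genes 1 was higher and 1 lower. Of 3 B cell RNA genes 1 was higher and 2 lower, and the 1 erythroid gene tested was higher (9.40). The part of these RNAs in the differences was not tested.

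**Figure D3:**
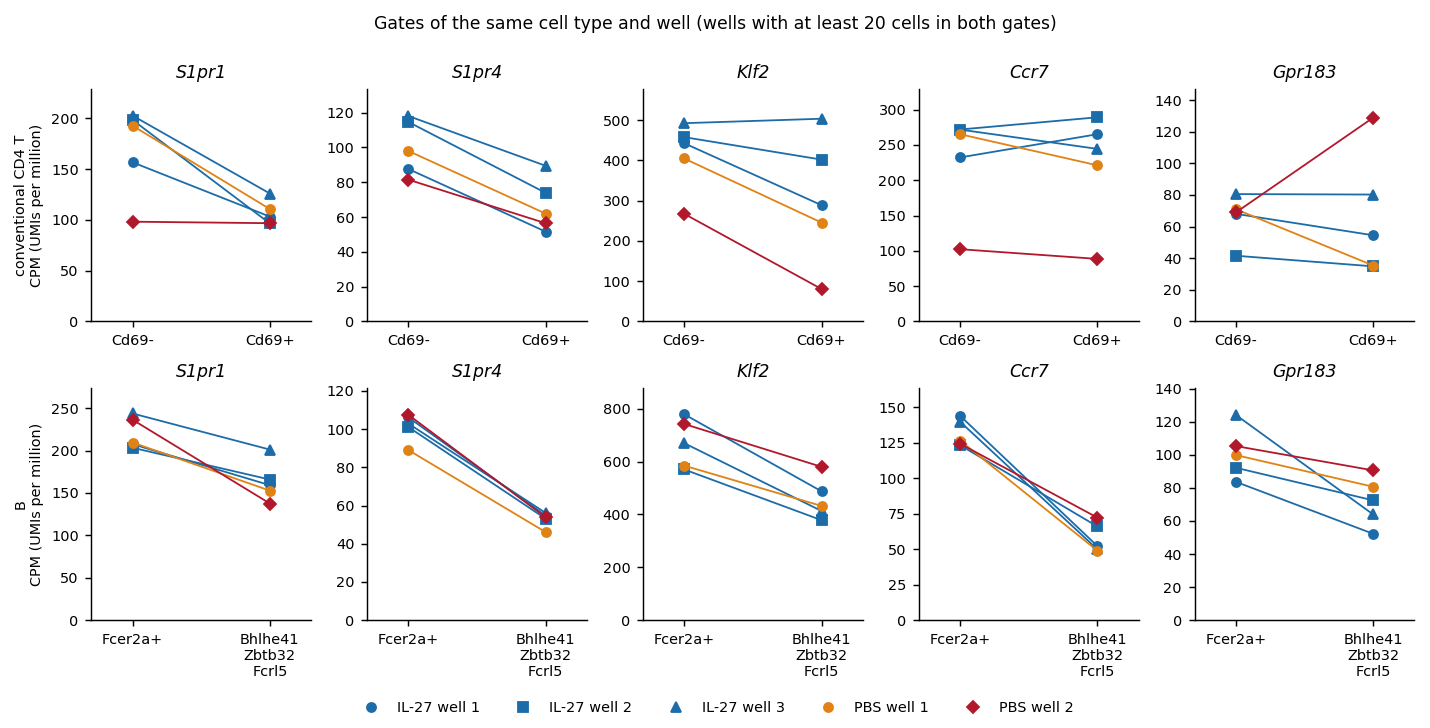
Level (CPM, linear axis from 0) of 5 genes in 2 gates of the same well, with a line per well: conventional CD4 T cells without and with a Cd69 UMI (top), and Fcer2a+ and Bhlhe41 Zbtb32 Fcrl5 B cells (bottom). S1pr1 and S1pr4 go down in every CD4 T cell well, by almost nothing for S1pr1 in PBS well 2, and S1pr4 and Ccr7 go down in every B cell well.

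NK cells and CD8 T cells, both killer lymphocytes, differed in which S1P receptor gene they held. The NK gate takes cells with an Ncr1 or Klrb1c UMI and no UMI of Cd3 genes, and may not hold NK cells alone. S1pr5 was higher in NK cells by 6.26 (SE 0.32, adjusted p = 1.51e-07), 1 of 6 genes against 7.76% of 7889. S1pr1 fell by 2.92 (SE 0.34, adjusted p = 7.25e-05) and Ccr7 fell by 4.26 (SE 0.31, adjusted p = 1.31e-06), 2 of 6 against 7.88%. By well, S1pr1 stood at 35.7, 21.7, 0, 21.2 and 7.28 CPM in NK cells and at 141, 153, 161, 117 and 18.7 CPM in CD8 T cells. The gates were apart in 4 wells and near each other in PBS well 2, where CD8 T cells were low.

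S1pr4 (0.55, adjusted p = 0.132), Klf2 (0.88, adjusted p = 0.0983) and Gpr183 (0.51, adjusted p = 0.381) were not called between NK and CD8 T cells. Klf2 was called without PBS well 2 (0.44, adjusted p = 5.33e-05). Scaling by library totals moved the median of all genes by 0.40 and brought S1pr4, Klf2 and Gpr183 over the threshold. Of 7 retention genes 2 were higher in NK cells, Itga1 (3.18) and Rgs2 (2.38). Of 6 chemokine and adhesion genes 4 were higher, the integrin genes Itgal (0.95), Itgb2 (1.0499) and Itga4 (1.70) and the migration gene Dock2 (0.71), and none of 10 S1P signalling genes was called.

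Within a gate, S1pr1 was found more often in T cells with a Klf2 UMI than in those without. Each cell was thinned to 1000 UMIs, so depth does not differ between the cells compared. Among conventional CD4 T cells, 26.1% of 677 cells with a Klf2 UMI had an S1pr1 UMI, against 9.82% of 1548 cells without. By well the shares were 23.8%, 28.6%, 25.1%, 27.2% and 29.6% against 9.67%, 9.69%, 9.80%, 11.4% and 7.14%. The 2 sets did not overlap, and PBS well 2 was no exception. Regulatory T cells had 25.4% against 9.43% and CD8 T cells 19.9% against 9.07%, with all wells pooled. In IL-27 wells 1 to 3 and PBS well 1, CD8 T cells had 21.2%, 19.8%, 21.6% and 15.5% against 9.45%, 9.13%, 12.1% and 11.3%. Regulatory T cells had 22.5%, 13.8%, 30.8% and 28.9% against 10.5%, 8.33%, 12.9% and 3.75% in these wells. PBS well 2 had fewer than 20 cells with Klf2 in both gates and enters the pooled shares only.

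In Fcer2a+ B cells, S1pr1 was found in 20.9% of cells with Klf2 and 19.0% of cells without, so the shares lay close together although both genes were abundant. The other genes varied less with Klf2 in conventional CD4 T cells: Ccr7 was found in 26.7% against 19.1%, S1pr4 in 14.5% against 7.11%, and Gpr183 in 5.76% against 5.68%. In NK cells S1pr5 and S1pr4 were found more often with Klf2: S1pr5 in 21.6% of 171 cells with Klf2 and 7.89% of 190 without, and S1pr4 in 18.1% and 10.0%. In the 3 wells with at least 20 cells of both kinds (IL-27 well 2 and both PBS wells) the shares for S1pr5 were 28.6%, 20.6% and 18% against 9.52%, 12.5% and 6.93%, and for S1pr4 they were 25.7%, 17.6% and 22.0% against 0%, 3.12% and 11.9%. S1pr1 was found in 1.75% and 1.58% of NK cells, and Gpr183 in 2.34% and 7.37%. Cells of a gate share their wells and libraries, so these shares carry no test.

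**Figure D4:**
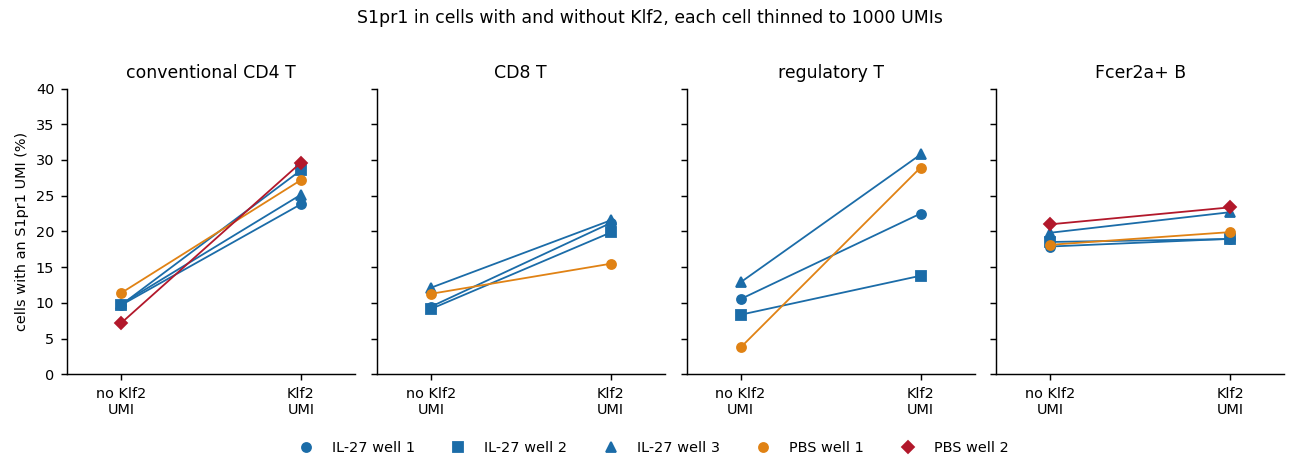
Share of cells with an S1pr1 UMI (%, axis from 0) among cells without and with a Klf2 UMI, thinned to 1000 UMIs, with a line per well that held at least 20 cells of both kinds. In all conventional CD4 T cell wells the share is 7.14% to 11.4% without and 23.8% to 29.6% with Klf2, while the Fcer2a+ B cell lines are nearly flat.

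Over 14 gates of at least 50 cells, some of them nested in each other and all from the same 2 libraries, the genes with the most similar log2 level were as follows, by Pearson's r. For S1pr1 they were Ephx1 (0.903), Prkd2 (0.882), Kmt2a (0.850), Mapk11 (0.848) and Lta (0.846). For S1pr4 they were Acap1 (0.971), Wdr33 (0.970), Tbc1d10c (0.936), Rasal3 (0.927) and Zfp292 (0.916), and for S1pr5 they were Tmem37 (0.912), Gsap (0.889), Tab2 (0.885), Ilk (0.866) and Higd1a (0.845). For Klf2, Sp100 (0.959), Gbp9 (0.908), Dnttip2 (0.907), Rnf40 (0.896) and Tcp11l2 (0.892) came closest. Ccr7 was most like Id3 (0.895), Il21r (0.881), H2-Q4 (0.880), Sit1 (0.871) and Mettl23 (0.855), and the genes most like Gpr183 included Tigd2 (0.975), Dock10 (0.974), Snhg20 (0.974) and Vkorc1 (0.970).

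Among the 6 genes themselves, S1pr1 went with Ccr7 (0.719) and Klf2 (0.630), S1pr4 went with Ccr7 (0.754), and S1pr5 ran opposite to Ccr7 (-0.405). Gpr183 had no coefficient above 0.216 with another of the 6. On the ligand side, the oxysterol enzyme genes Ch25h and Cyp7b1 did not pass 4.90 CPM in any gate. Cyp27a1, which makes another oxysterol, reached 65.2 CPM in monocytes and macrophages and 34.3 CPM in mature dendritic cells, and Hsd3b7, which breaks the ligand down, reached 88.3 CPM in mature dendritic cells. Ccl19 reached 9.81 CPM in mature dendritic cells and Ccl21a 2.91 CPM in conventional dendritic cells, both from under 40 cells.

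IL-27 and PBS cells were then compared gate by gate, to ask whether the cytokine altered these genes. B cells, the gate with most cells, were nearly equal between the libraries. In several T cell gates and NK cells the IL-27 library held more of some of the genes. PBS well 2 lay below PBS well 1 for Klf2 in conventional CD4, CD8 and γδ T cells and for S1pr5 in NK cells. In plasma cells and plasmacytoid dendritic cells the IL-27 library held less of some. In plasmacytoid dendritic cells the Ccr7 UMIs of the PBS library all lay in PBS well 2. None of the genes passed the test over wells in any of the 7 gates where it was run. γδ T cells, Bhlhe41 Zbtb32 Fcrl5 B cells and T cells without a Cd4, Cd8a or Cd8b1 UMI had enough cells but were not tested. In B cells the ratio of IL-27 to PBS was 1.00 for S1pr1 (95% interval 0.965 to 1.04, counting error only), 1.02 for Klf2, 1.11 for Ccr7 (1.06 to 1.17), 1.099 for S1pr4 and 0.986 for Gpr183. None of the 5 genes was 1.5-fold apart in B cells (0.67% of all genes), Fcer2a+ B cells (0.556%), Cr2+ Fcer2a- B cells (4.13%), regulatory T cells (16.7%) or conventional CD4 T cells (4.55%). Without PBS well 1 the count became 1 in regulatory T cells and 3 in conventional CD4 T cells.

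In conventional CD4 T cells Klf2 stood at 405, 446 and 495 CPM in the IL-27 wells and at 362 and 229 CPM in the PBS wells. Every IL-27 well was above both PBS wells, for 1 of 5 genes against 11.4% of all genes. The library ratio was 1.36 (1.26 to 1.48), and edgeR gave a log2 difference of 0.57 (SE 0.20, adjusted p = 0.997), or 0.25 without PBS well 2.

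In CD8 T cells PBS well 2 lay far below the other wells. Klf2 stood at 458, 449 and 524 CPM in the IL-27 wells, 413 CPM in PBS well 1 and 54.6 CPM in PBS well 2, and S1pr1 at 141, 153, 161, 117 and 18.7 CPM. PBS well 1 was close to the IL-27 wells. Of the 5 genes 3 were at least 1.5-fold higher in IL-27 (2.93% of all genes): S1pr1 with a ratio of 1.76 (1.49975 to 2.07), Klf2 with 1.61 (1.47 to 1.75) and Gpr183 with 1.64 (1.26 to 2.17). Every IL-27 well was above both PBS wells for 3 of 5 (8.54%). Without PBS well 2 none was 1.5-fold apart, and without PBS well 1 all 5 were. In no gate was the share of all genes 1.5-fold apart counted with a well left out.

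In γδ T cells Klf2 stood at 522, 635 and 631 CPM in the IL-27 wells and 349 and 124 CPM in the PBS wells, and S1pr1 at 154, 218, 244, 172 and 25.2 CPM. Here 4 of 5 genes were at least 1.5-fold higher in IL-27 (9.69% of all genes), with ratios of 3.17 for Klf2, 3.096 for Ccr7, 3.08 for S1pr1 and 1.58 for S1pr4, and 2 of 5 had every IL-27 well on top (9.14%). Without PBS well 2 the count of 4 became 1.

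The retention list moved the other way in the same well. Its 8 genes (Cd69, Itgae, Itga1, Cxcr6, Rgs1, Rgs2, Zfp683 and Prdm1) summed to 1509.9 CPM of tissue retention RNA in CD8 T cells of PBS well 2 and to 123 to 186 CPM in the other wells, with 7 of 8 and 7 or 8 of 8 detected. In γδ T cells the sums were 1379.7 CPM and 220.4 to 361 CPM, and in conventional CD4 T cells 634 CPM and 168 to 219 CPM. Cxcr6 alone stood at 1090.4 CPM in CD8 T cells of PBS well 2 and at 15.6 to 48.0 CPM elsewhere. RNA of the 7 gastric epithelial genes summed to 79.0 CPM against 1.08 to 23.1 CPM in CD8 T cells, and that of the dissociation response to 2122 CPM against 1076 to 1198 CPM. PBS wells 1 and 2 share the treatment, while PBS well 2 and the IL-27 wells differ in it as well. Sex, tissue yield and well cannot be told apart for PBS well 2, and the part of these RNAs in the ratios was not tested.

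In NK cells S1pr5 stood at 173, 293 and 231 CPM in the IL-27 wells and at 165 and 76.4 CPM in the PBS wells. The lowest IL-27 well and PBS well 1 nearly touched. The library ratio was 2.37 (1.74 to 3.24) from 104 and 73 UMIs, 1 of 4 genes at least 1.5-fold higher (9.4% of all genes), and 2 of 4 had every IL-27 well above both PBS wells (9.52%). The count at 1.5-fold was 0 without PBS well 2, and 2 without PBS well 1 or IL-27 well 2. Over wells the log2 difference was 1.15 (SE 0.29, adjusted p = 0.0590), higher in 3 of 3 IL-27 wells. It passed with the strict cell filter (adjusted p = 0.0269) and without the low-count filter (adjusted p = 0.0102), and not with DESeq2 (adjusted p = 1.000) or without PBS well 2 (0.45, adjusted p = 0.996).

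Plasma cells went the other way. Klf2 stood at 262, 186 and 70.1 CPM in the IL-27 wells and at 260 and 229 CPM in the PBS wells, and S1pr1 at 59.5, 26.6, 17.3, 86.6 and 25.4 CPM. The wells overlapped for both genes, and IL-27 well 3, which held 91 of the 124 IL-27 plasma cells, was lowest. Of 5 genes 4 were at least 1.5-fold lower in IL-27 (11.3% of all genes), with ratios of 0.421 for S1pr1 (0.226 to 0.834), 0.451 for S1pr4 (0.243 to 0.888), 0.437 for Klf2 (0.325 to 0.594) and 0.335 for Gpr183 (0.148 to 0.827). Ccr7 was higher (40.2% of all genes), from 22 and 2 UMIs, at 1.51 (0.371 to 13.2). The PBS library held 25 plasma cells and no PBS well had 20, so no test was run. The count of 5 genes 1.5-fold apart became 1 without IL-27 well 3, 3 without PBS well 1 and 1 when cells were thinned.

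In plasmacytoid dendritic cells 2 of 4 genes were at least 1.5-fold lower in IL-27 (12.1% of all genes). Ccr7 had a ratio of 0.0402 (0.00479 to 0.1498) from 2 and 85 UMIs, and all 85 PBS UMIs lay in PBS well 2, which held 68 of the 78 PBS cells. S1pr4 had a ratio of 0.645 (0.365 to 1.097), an interval that holds 1. The count of 2 became 1 without IL-27 well 1, IL-27 well 3 or PBS well 2. In Bhlhe41 Zbtb32 Fcrl5 B cells the IL-27 library held less Klf2, with a ratio of 0.777 (0.698 to 0.866), and less Gpr183, with 0.733 (0.555 to 0.967), and more S1pr1, with 1.25 (1.04 to 1.52). In T cells without a Cd4, Cd8a or Cd8b1 UMI, a gate added after seeing the data, Klf2 had a ratio of 1.27 (1.17 to 1.38) and Gpr183 one of 0.685 (0.559 to 0.841).

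By edgeR's quasi-likelihood test 0 of the 5 genes tested were called between IL-27 and PBS wells in conventional CD4 T cells (0% of 9498 genes called), regulatory T cells (0.134% of 6716), CD8 T cells (0% of 8858), B cells (0% of 11121), Fcer2a+ B cells (0.0571% of 10503) and Cr2+ Fcer2a- B cells (0% of 8679), and 0 of 4 in NK cells (0.428% of 3505). An unadjusted p under 0.05 was reached by Klf2 in conventional CD4 T cells, by Klf2 and S1pr5 in NK cells, and by S1pr4 in Cr2+ Fcer2a- B cells. DESeq2 called none of the genes in any of the 7 gates. With either PBS well left out, 1 well alone stood for PBS, so the calls of those fits are not counted here. Over all genes, an unadjusted p under 0.05 was reached by 402 of 9498 in conventional CD4 T cells and 258 of 3505 in NK cells. It was reached by 375 of 8679 in Cr2+ Fcer2a- B cells, 608 of 8858 in CD8 T cells and 571 of 11121 in B cells. A missed threshold does not show that the levels were equal.

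Whether the treatment ratio differed between B cells and conventional CD4 T cells was tested as an interaction. By edgeR 0 of 5 genes were called (0% of 11734, with 470 at an unadjusted p under 0.05), with Klf2 at -0.55 (SE 0.21, adjusted p = 1.000). DESeq2 was not run for this term.

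**Figure D5:**
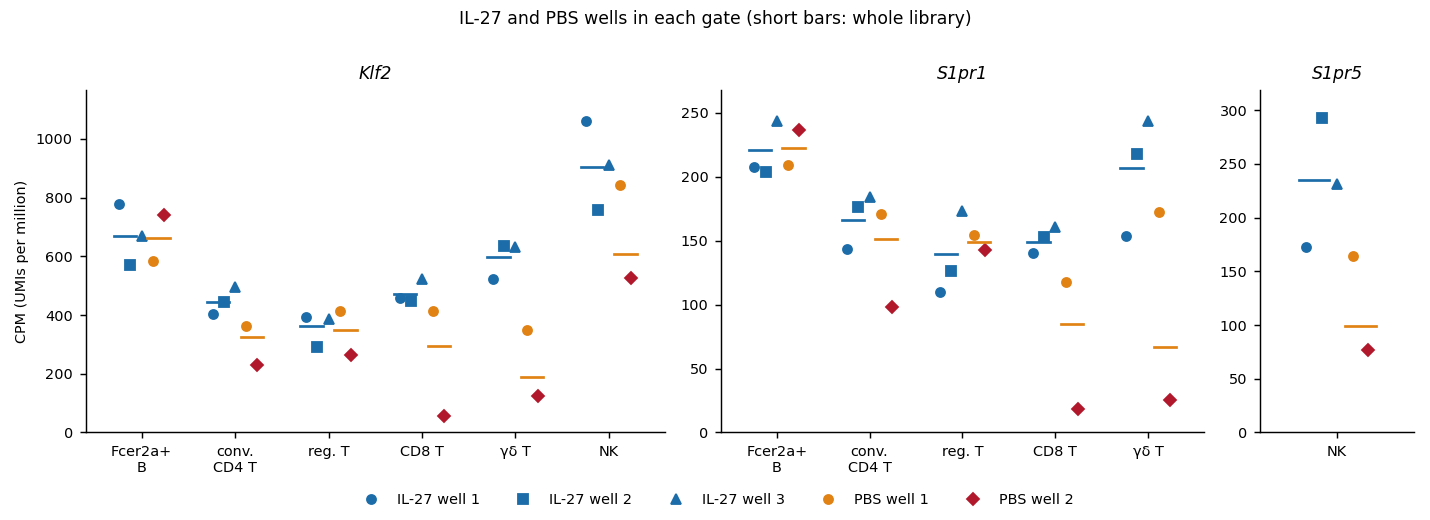
Level (CPM, linear axis from 0) of Klf2, S1pr1 and S1pr5 in IL-27 wells (blue) and PBS wells (orange for well 1, red for well 2), with a short bar for each whole library. In CD8 T cells PBS well 2 stands at 54.6 CPM of Klf2 and 18.7 CPM of S1pr1 and PBS well 1 near the IL-27 wells, while in Fcer2a+ B cells the wells interleave.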

How the data were processed

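The deposited files hold UMI counts per gene and cell for 1 IL-27 and 1 PBS library, made by the authors with Cell Ranger 3.0.0 against mm10 per the submitters' processing notes, while the file headers name version 3.1.0. Cells with at least 200 genes and at most 10% mitochondrial UMIs were kept. Gates used raw UMIs of marker genes with none of other lineages, which also removes doublets between lineages; no doublet caller was used otherwise. The 6 genes, the gates and the lists were chosen with earlier results of these data known.

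Each library is 1 replicate, so library ratios carry an exact 95% counting interval and no test, and counting intervals and zero limits (3 counts) cover counting error only. A fold of at least 1.5 was called for genes with 10 CPM or more in the higher library and 20 UMIs or more. Counts summed per well (at least 20 cells) were tested with edgeR 4.0.16 (TMM, filterByExpr, quasi-likelihood, Benjamini-Hochberg over all genes, 0.05), with the well as a block between gates and gate-defining genes left out. Gates of at least 50 cells were compared. Named genes are the 6 genes, list members, gate-defining genes and, for each of the 6, up to 5 genes of most similar level among those reaching 50 CPM. The lists cover S1P signalling, KLF and FOXO genes, chemokine and adhesion genes, oxysterol enzymes, tissue retention, dissociation response, and B cell, T cell, myeloid, gastric epithelial and erythroid RNA. Alternatives were DESeq2 1.42.0, other scalings and filters, thinning, Scrublet and leaving out each well. Analyses ran in R 4.3.3 and Python 3.11.15 with scanpy 1.11.5, and the tests were tested on simulated data. Some planned comparisons rest on items not reported here and were left out, as were their gates from the similarity ranking and 1 gene from the lists.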

Additional observations from a re-analysis of the deposited data

How the results depend on the processing

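No called difference between gates and no library ratio past 1.5-fold of the 6 genes (on the log2 scale of CPM plus 1) reversed its sign in 387 and 469 recalculations of all differences and ratios; 345 and 414 kept their side of the threshold or their size. Between gates, regulatory against conventional CD4 T cells gave 2 genes called lower without the low-count filter and 1 to 3 over left-out wells. Cd69+ against Cd69- CD4 T cells gave 0 thinned, 1 with DESeq2, 0 without the replicate block (the well) and 1 to 3 over left-out wells. Cr2+ Fcer2a- B cells gave 0 without the block and 1 to 3 over left-out wells. Bhlhe41 Zbtb32 Fcrl5 B cells gave 3 thinned, 3 with DESeq2 and 3 without the block. NK against CD8 T cells gave 4 higher with library totals, 2 without the filter and 1 to 2 over left-out wells.

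Between IL-27 and PBS wells, 1 gene was called in conventional CD4 T cells without the filter. In NK cells 1 was called with the strict filter and 1 without the filter. Fits without PBS well 1 or PBS well 2 leave a lone PBS well, so their calls are not counted here. For the counts at 1.5-fold that follow, the share of all genes was not counted again. Counts at 1.5-fold ran over left-out wells from 0 to 5 in CD8 T cells (0 at a fold of 2), 1 to 4 in γδ T cells, 0 to 2 in NK cells (2 with the strict filter, 2 with 1 UMI of another lineage, 2 thinned), 0 to 3 in conventional CD4 T cells, 0 to 1 in regulatory T cells, 1 to 5 in plasma cells (1 thinned) and 1 to 2 in plasmacytoid dendritic cells (1 at a fold of 2, 1 with the strict filter, 1 thinned). The CPM of Klf2 in neutrophil cells ran from 643 without PBS well 2 to 1030.1 without IL-27 well 3. DESeq2 gave no adjusted p for S1pr4 and Ccr7 in Cr2+ Fcer2a- B cells. The cause of these changes was not tested. No paired analysis was possible between IL-27 and PBS because their wells share no label that pairs them.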
